A study of Mus musculus with 12 samples.

Results

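The immunity-related GTPases (IRGs) were examined here as 7 genes, *Irgm1*, *Irgm2*, *Igtp*, *Ifi47*, *Iigp1*, *Tgtp1* and *Tgtp2*, found by their symbols among the 23022 genes listed for RNA-seq of B16-F10 cells, a mouse melanoma line. All 7 were listed, and 6 reached the level required for testing, at least 1 TPM (transcript abundance as a share of the library, corrected for transcript length) in at least 3 of 12 libraries. *Iigp1* did not and is given by its values. *Irgm1* reached 1 TPM in all 6 untreated libraries, *Ifi47* in 3 and *Irgm2* in 1, while *Igtp*, *Tgtp1* and *Tgtp2* reached it with interferon gamma (IFNγ) only, so that these 3 and *Irgm2* could pass this filter only through their treated libraries.

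All cells carried Cas9 and came from 1 clone picked for its editing rate. NTC cells had received a control guide, called a no template control in the sample labels and a non-targeting control by the study. *Mbnl1*/*Mbnl2* double knockout (DKO) cells had received a paired guide against both muscleblind-like RNA-binding proteins and were kept as a polyclonal population in which some protein remained. Each genotype was left untreated or given IFNγ, by the study's account at 1 ng/mL for 24 h, with 3 libraries for each of the 4 conditions. The labels number the libraries of a condition without saying whether they came from separate cultures, so p-values measure the spread between these libraries, which may be technical. *Mbnl1* RNA was still measured in DKO cells, at a mean of 42.1 TPM against 56.5 TPM in untreated NTC cells, and *Mbnl2* at 89.1 against 103 TPM.

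IRGs are large GTPases of the cell-autonomous defence that IFNγ switches on, best known from mouse cells infected with vacuole-dwelling parasites and bacteria. Effector IRGs load onto the membrane of the pathogen vacuole and help to break it, and regulator IRGs of the IRGM kind sit on the cell's own membranes and hold the effectors inactive there. IFNγ signals through JAK kinases to DNA elements near its target genes, among them the gamma-activated site (GAS) and the interferon-stimulated response element (ISRE), the latter bound by interferon regulatory factors. *Irgm1*, *Irgm2* and *Igtp* (also called *Irgm3*) are the regulators. *Ifi47* (*Irgd*), *Iigp1* (*Irga6*), *Tgtp1* and *Tgtp2* (both *Irgb6*) are the effectors.

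In GENCODE M21 (GRCm38), 6 of the 7 genes lie on chromosome 11 in 2 clusters. The first spans 235 kb, chr11:48861968-49096974, and holds *Irgm1* (chr11:48861968-48871683, minus strand), *Tgtp1* (chr11:48985327-48994172, minus), *Tgtp2* (chr11:49057194-49064206, minus) and *Ifi47* (chr11:49076587-49096974, plus). The second holds *Igtp* (chr11:58199556-58207591) and *Irgm2* (chr11:58199618-58222782), both on the plus strand, with 162 exonic bases in common. *Iigp1* lies on another chromosome.

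RefSeq promoter windows of 300 bases, 250 before and 50 after the annotated start, were found for 6 of the 7 genes (GRCm38.p6) and searched for GAS, written TTCNNNGAA, which reads the same on both strands, and for the ISRE core GAAANNGAAA (TTTCNNTTTC in reverse) on both strands. The 5 windows with an ISRE match are given here by 60 bases each, 5′ to 3′ on the strand of the gene. All lie upstream of the RefSeq start. By the GENCODE coordinates above, those of *Irgm2*, *Tgtp1* and *Irgm1* lie inside the gene, because the 2 annotations place its start differently. They are shown because 2 of the 3 regulators and 2 of the 4 effectors hold the same arrangement of the motifs there. Capitals mark GAS and ISRE matches.
Irgm2 (chr11:58214882-58214941, plus): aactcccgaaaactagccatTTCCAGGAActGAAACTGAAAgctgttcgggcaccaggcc
Igtp (chr11:58199491-58199550, plus): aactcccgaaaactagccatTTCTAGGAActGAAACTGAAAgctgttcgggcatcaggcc
Tgtp1 (chr11:48992295-48992354, minus): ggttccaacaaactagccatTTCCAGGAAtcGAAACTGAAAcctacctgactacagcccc
Tgtp2 (chr11:49064254-49064313, minus): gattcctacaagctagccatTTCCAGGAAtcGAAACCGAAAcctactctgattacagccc
Irgm1 (chr11:48871421-48871480, minus): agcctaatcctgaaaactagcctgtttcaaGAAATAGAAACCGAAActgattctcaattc

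In *Irgm2*, *Igtp*, *Tgtp1* and *Tgtp2*, a GAS match was followed after 2 bases by an ISRE match. The GAS match started at −88 (*Tgtp1*) to −45 (*Igtp*) from the RefSeq start. *Irgm1* held 2 overlapping ISRE matches and no GAS match. At the same distance before its last ISRE match, *Irgm1* reads ttcaagaaa, which departs from the GAS pattern by G7A, counted from 1 at the first base of the pattern. *Ifi47* held neither motif in its window. Among all 32851 promoters of that table, 8.3% held a GAS match, 3.44% an ISRE match and 0.131% both, overlapping or within 10 bases of each other. A match describes letters in this window and was not tested for binding. Over 45 bases lined up on the ISRE match, *Irgm2* and *Igtp* were identical at 44, *Tgtp1* and *Tgtp2* at 37, and *Irgm1* matched the other 4 genes at 24 to 29 bases.

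**Figure D1:**
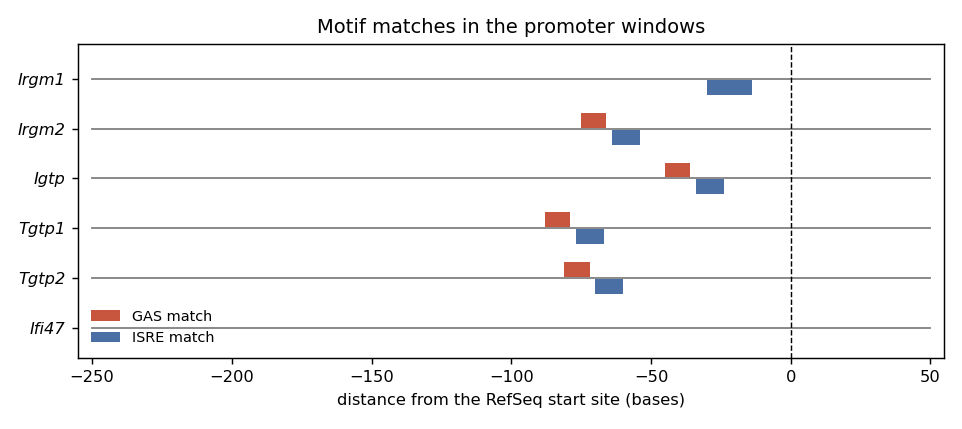
Positions of GAS matches (red, above the line) and ISRE matches (blue, below the line) in the RefSeq promoter windows of 6 IRG genes, with the distance from the annotated start in bases on the x axis. The pair of adjacent matches is seen in *Irgm2*, *Igtp*, *Tgtp1* and *Tgtp2*, only ISRE matches in *Irgm1* and none in *Ifi47*.

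The libraries had the profile of melanocytic cells, with all 7 melanocyte markers checked at 1 TPM or more in every library. *Ptprc*, *Cd3e* and *Nkg7*, which mark leukocytes, *Epcam*, *Krt8* and *Krt18*, which mark epithelial cells, and *Cdh5* and *Kdr*, which mark endothelial cells, were at 0 in all 12. Several marker sums moved with a condition. Those of macrophages had a sum of 2.10 to 2.56 TPM in untreated NTC, 2.44 to 4.18 TPM in treated NTC, 2.98 to 3.95 TPM in untreated DKO and 5.59 to 7.14 TPM in treated DKO libraries, mostly from *Cd68*, a lysosomal membrane protein. Fibroblast markers summed to 2.44 to 2.70 TPM in untreated and 1.63 to 2.02 TPM in treated NTC libraries, and to 3.38 to 4.24 and 3.44 to 3.75 TPM in DKO libraries. Melanocyte markers summed to 16647 to 17554 TPM in untreated and 18050 to 18643 TPM in treated NTC libraries, and to 11124 to 11452 TPM in untreated and 12319 to 12414 TPM in treated DKO libraries. The part of these shifts in the IRG values was not tested. The listed genes summed to between 844185 and 874612 TPM in NTC and between 805782 and 827191 TPM in DKO libraries. TPM keep no read depth, and the precision of a value is known only from the spread between libraries.

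In untreated NTC cells, IRG RNA was low and most of it was *Irgm1*. *Irgm1* stood at 4.26, 5.04 and 5.54 TPM, *Ifi47* next at 0.930, 1.51 and 1.24 TPM, then *Irgm2* at 0.535, 0.783 and 0.714 TPM and *Igtp* at 0.301, 0.396 and 0.380 TPM. Each of these 4 genes was separated from the next by the ranges of their libraries. *Tgtp1* and *Tgtp2* were listed at 0 in all 6 untreated libraries of both genotypes, and *Iigp1* was listed at 0 in all of them but NTC replicate 3, where it was at 0.241 TPM. Over the 7 genes, *Irgm1* made up 65.2% to 70.7% of the summed TPM in untreated NTC libraries.

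IFNγ raised all 6 tested IRG genes in NTC cells, where 12.1% of all 11663 tested genes passed the threshold, a Benjamini-Hochberg adjusted p-value under 0.05 in limma, and 7.31% passed it with a rise. Of the passing genes, 60.5% rose, a share that was 45.1% when all libraries were given equal totals and 48.8% under median-ratio scaling. Because several of the 6 were tested only through their treated libraries, their count supports nothing by itself, and the values follow. These are bulk libraries, in which fewer cells expressing a gene and less RNA per cell cannot be told apart.

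*Irgm1*, the regulator linked to lysosomes, mitochondria and the Golgi, went to 24.2, 22.2 and 25.6 TPM in treated NTC libraries, 4.85 times its untreated mean. On the log2(TPM + 1) scale, which understates the change of genes near or below 1 TPM, it rose by 2.07 (SE 0.0929, adjusted p = 4.72e-09). *Irgm2*, a Golgi-associated regulator, went to 8.56, 7.47 and 8.90 TPM, 12.3 times its untreated mean, and rose by 2.47 (SE 0.0993, adjusted p = 1.56e-09). *Igtp*, a regulator of the endoplasmic reticulum, reached 5.23, 5.27 and 5.23 TPM, 14.6 times its untreated mean, with a rise of 2.20 (SE 0.131, adjusted p = 1.30e-07). All treated NTC libraries of the 3 regulators lay above all untreated ones, and the regulator with the highest untreated level had the smallest ratio.

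Among the effectors, *Ifi47* reached 8.39, 6.94 and 7.50 TPM in treated NTC libraries, 6.20 times its untreated mean, and rose by 1.96 (SE 0.137, adjusted p = 7.16e-07). *Tgtp1* appeared at 3.52, 3.17 and 3.20 TPM (adjusted p = 2.76e-08). *Tgtp2* appeared at 4.09, 4.54 and 5.10 TPM (adjusted p = 2.86e-07). No fold is given for these last 2 genes, which were listed at 0 without IFNγ. *Iigp1*, also an effector, was at 0.661, 0.851 and 0.703 TPM, above all untreated libraries but below 1 TPM throughout. Ordered by log2 difference with IFNγ in NTC cells, the 6 tested genes ranked between 6 (*Tgtp2*) and 19 (*Ifi47*) of 11663.

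**Figure D2:**
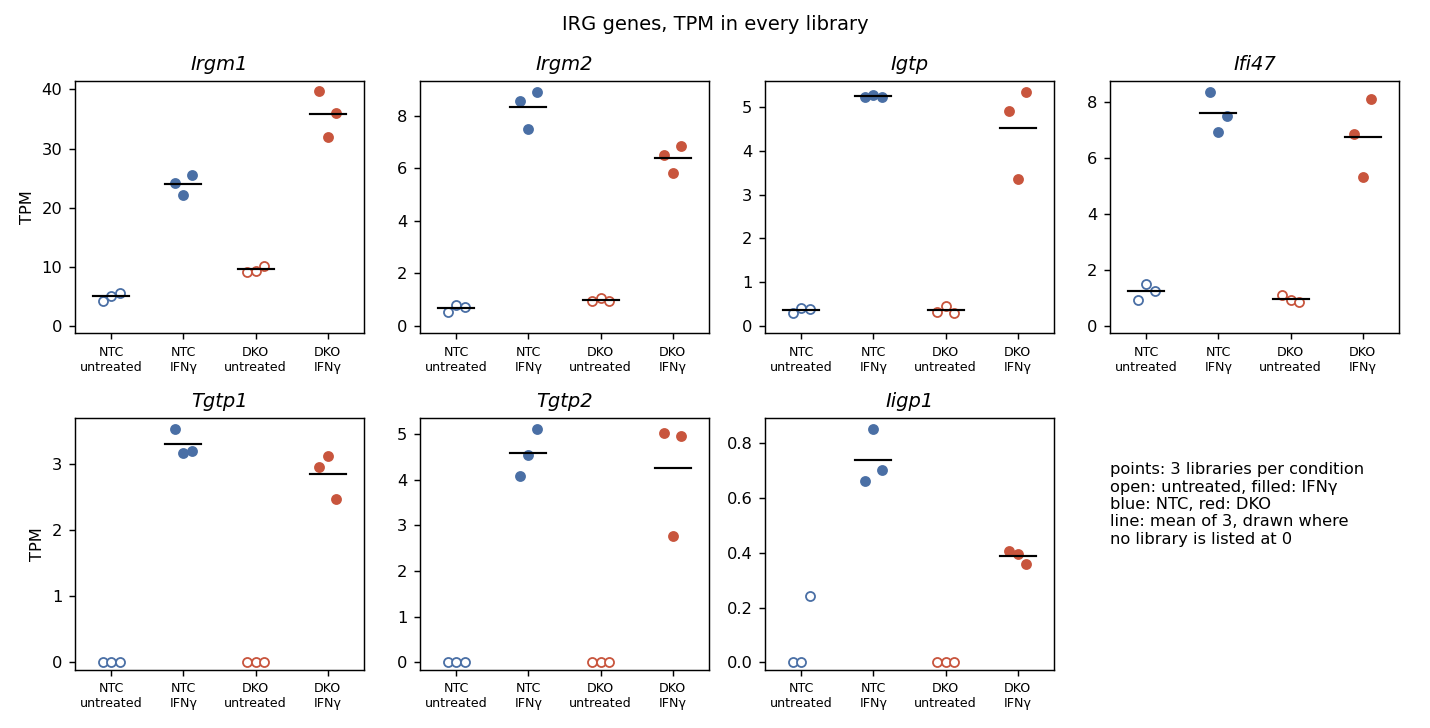
TPM of each of the 7 IRG genes in the 12 libraries, on a linear y axis of its own for each gene, with open circles for untreated and filled circles for IFNγ-treated libraries, blue for NTC and red for DKO, and a line at the mean of 3 where no library is listed at 0. Treated libraries lie above untreated ones for all 7 genes, and all DKO libraries of *Irgm1* lie above the NTC libraries of the same treatment.

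In DKO cells the same 6 genes passed the test with IFNγ, all higher. Of all tested genes, 0.78% passed in either direction and 0.677% with a rise. Here too the count supports nothing by itself, because *Irgm2*, *Igtp*, *Tgtp1* and *Tgtp2* were tested through their treated libraries. *Irgm1* went from 9.13, 9.30 and 10.1 TPM to 39.7, 32.0 and 35.9 TPM, a rise of 1.80 on the log2 scale (SE 0.0929, adjusted p = 3.84e-08). *Irgm2* went from 0.924, 1.04 and 0.931 TPM to 6.48, 5.80 and 6.85 TPM, a rise of 1.91 (SE 0.0993, adjusted p = 3.84e-08). *Igtp* went from 0.305, 0.448 and 0.289 TPM to 4.90, 3.35 and 5.34 TPM, a rise of 2.02 (SE 0.131, adjusted p = 3.68e-07). The untreated and treated libraries of these regulators did not overlap, and the ratios of mean TPM were 3.77 for *Irgm1*, 6.61 for *Irgm2* and 13.0 for *Igtp*.

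The effector *Ifi47* went from 1.09, 0.933 and 0.832 TPM to 6.86, 5.33 and 8.13 TPM in DKO cells, a ratio of means of 7.11 and a log2 rise of 1.98 (SE 0.137, adjusted p = 7.37e-07). *Tgtp1* appeared at 2.95, 3.12 and 2.46 TPM (adjusted p = 8.40e-08). *Tgtp2* appeared at 5.02, 2.78 and 4.96 TPM (adjusted p = 5.92e-07). *Iigp1*, at 0 in all 3 untreated DKO libraries, was at 0.406, 0.395 and 0.361 TPM with IFNγ. Treated DKO replicate 2 was the lowest treated DKO library for *Irgm1*, *Irgm2*, *Igtp*, *Ifi47* and *Tgtp2* and the highest for *Tgtp1*. In this condition *Ifi47* and *Irgm2* overlapped in their TPM, as did *Igtp* and *Tgtp2*, and *Tgtp2* and *Tgtp1*, so that only *Irgm1* at the top, *Irgm2* above *Igtp* and *Iigp1* at the bottom were separated from their neighbours in the order of means.

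Comparing genotypes without IFNγ, *Irgm1* was the 1 IRG gene of 6 that differed by the test. Of all tested genes, 36.4% did, with 17% of all tested genes higher in DKO cells. *Tgtp1* and *Tgtp2*, listed at 0 in all untreated libraries, could not differ here. The count of 1 is near the share of all tested genes and is not a result about the family. Of the genes that passed, 46.7% were higher, or 60.6% when all libraries were given equal totals. For *Irgm1*, all 3 DKO libraries lay above all NTC libraries, with means of 9.52 and 4.95 TPM and a ratio of 1.92. Its log2 difference was 0.83 (SE 0.0929, 95% interval 0.63 to 1.03, adjusted p = 1.69e-05 in limma). It ranked at 111 of 11663 genes by log2 difference. *Irgm2* libraries also did not overlap, but the difference of 0.23 (interval 0.02 to 0.44) did not pass over all genes (adjusted p = 0.0866). With a pseudocount of 0.1 TPM in place of 1 TPM, *Irgm2* did pass (0.47, adjusted p = 0.0258). *Igtp* differed by −0.01 (interval −0.30 to 0.27) and *Ifi47* by −0.18 (interval −0.48 to 0.11), and their libraries overlapped between genotypes.

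With IFNγ, the genotypes differed in *Irgm1* and *Irgm2*, 2 of the 6 tested genes, in opposite directions, against 43.3% of all tested genes, 19.5% higher and 23.9% lower in DKO cells. Of the genes that passed, 44.9% were higher, or 65.2% when all libraries were given equal totals. *Irgm1* was higher in DKO cells by 0.56 (SE 0.0929, interval 0.36 to 0.76, adjusted p = 0.000356), with a ratio of mean TPM of 1.50. *Irgm2* was lower in DKO cells, at a mean of 6.38 TPM against 8.31 TPM, a log2 difference of −0.33 (SE 0.0993, interval −0.55 to −0.12, adjusted p = 0.0151). For both genes the libraries of the genotypes were apart. The *Irgm2* call rested on single libraries: leaving out treated NTC replicate 3 ended it (−0.29, adjusted p = 0.0623), as did leaving out treated DKO replicate 2 (−0.28, adjusted p = 0.0663) and with a pseudocount of 0.1 TPM (−0.38, adjusted p = 0.0563).

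The other treated differences were of the same sign and did not pass. *Igtp* was at −0.19 (interval −0.48 to 0.09, adjusted p = 0.252), *Ifi47* at −0.16 (interval −0.45 to 0.13, adjusted p = 0.370) and *Tgtp1* at −0.16 (interval −0.40 to 0.07, adjusted p = 0.249), where the 3 DKO libraries of *Tgtp1* lay below the 3 NTC libraries. *Tgtp2* was at −0.12 (interval −0.46 to 0.23, adjusted p = 0.587), and its value turned to 0.11 without treated DKO replicate 2. *Iigp1* libraries were lower in all 3 treated DKO libraries than in the 3 treated NTC libraries. With no filter on low values, its log2 difference was −0.32 (SE 0.0857, adjusted p = 0.0140 over 16123 genes).

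**Figure D3:**
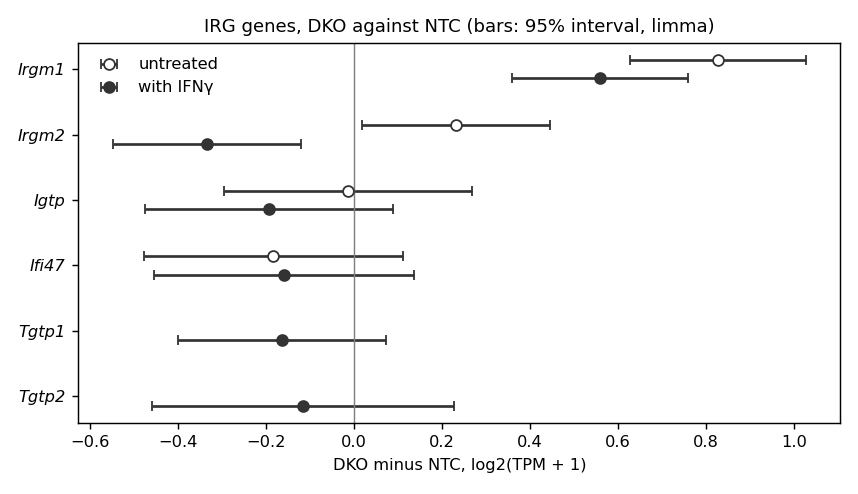
Difference between DKO and NTC cells in log2(TPM + 1) for the 6 tested IRG genes, with open circles for untreated and filled circles for IFNγ-treated libraries and bars for the 95% interval from limma. *Tgtp1* and *Tgtp2* have no untreated point because they were listed at 0, and *Irgm1* is the gene with both intervals above 0.

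Of the 6 tested genes, 0 passed for a difference in the response to IFNγ between genotypes, by limma with adjustment over all genes. Of all tested genes, 0.0343% passed, so a count of 0 among 6 is not a result about the family. At an unadjusted p under 0.05 there was 1 of the 6, *Irgm2*, whose log2 response was smaller in DKO cells (difference −0.57, SE 0.140, interval −0.87 to −0.26, adjusted p = 0.364 in limma). *Irgm2* ranked at 11600 of 11663 genes from the highest difference. Over all 11663 tested genes, 1340 had an unadjusted p under 0.05 in limma for this comparison, so the count of 1 among 6 is not a result about the family. *Irgm1* had a difference of −0.27 (interval −0.55 to 0.01, adjusted p = 0.445) although its TPM rose by more in DKO cells, by 26.3 TPM against 19.0 TPM in NTC cells. The direction for *Irgm1* therefore depends on whether the response is read as a ratio or as an amount. The TPM increases were not tested.

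For the remaining genes the difference in response was −0.18 for *Igtp* (interval −0.58 to 0.22), 0.02 for *Ifi47* (−0.39 to 0.44), −0.16 for *Tgtp1* (−0.50 to 0.17) and −0.12 for *Tgtp2* (−0.60 to 0.37). *Tgtp1* and *Tgtp2* were listed at 0 without IFNγ in both genotypes. Their values here are therefore the treated differences between genotypes given above, not separate results. The increase in mean TPM was 4.89 in NTC and 4.18 in DKO cells for *Igtp* and 6.38 and 5.82 for *Ifi47*. The median response difference over all tested genes was −0.01.

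The balance within the family followed *Irgm1*. The summed TPM of the 7 genes ranged from 6.03 to 8.12 in untreated NTC, 50.4 to 56.2 in treated NTC, 11.5 to 12.2 in untreated DKO and 52.7 to 66.3 in treated DKO libraries. With IFNγ, the effectors summed to 15.5 to 16.7 TPM in NTC and 11.6 to 15.9 TPM in DKO cells, ranges that overlap. The regulators summed to 34.9 to 39.7 TPM in NTC and 41.1 to 51.0 TPM in DKO cells, ranges that do not. *Irgm1* took 44.0% to 45.5% of the family's TPM in NTC and 56.1% to 60.6% in DKO cells with IFNγ, against 65.2% to 70.7% and 79.3% to 83.2% in untreated cells.

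**Figure D4:**
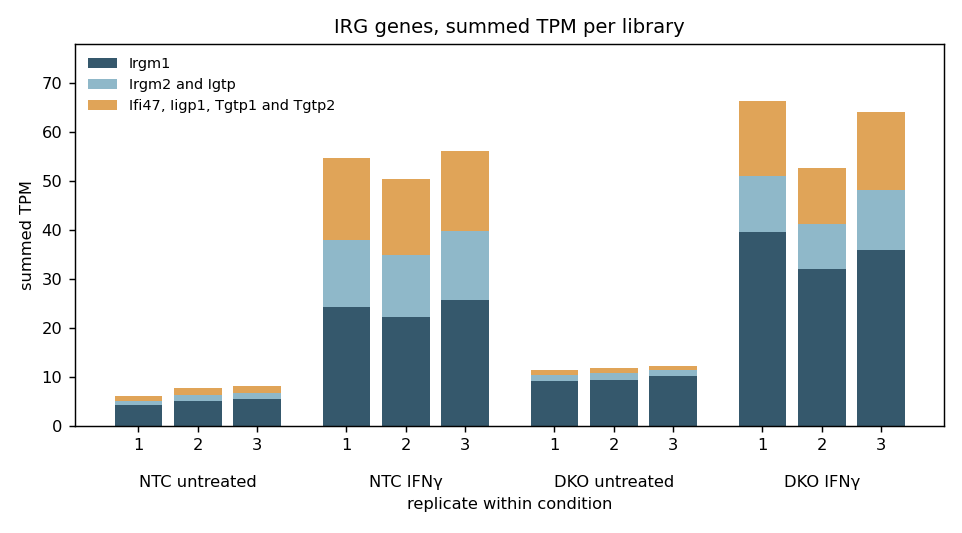
Summed TPM of the IRG genes in each of the 12 libraries, stacked as *Irgm1*, *Irgm2* with *Igtp*, and the 4 effectors, with the replicate number on the x axis. The *Irgm1* segment is taller in DKO than in NTC libraries in both treatments, and the effector segments of treated libraries overlap between genotypes.

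A ratio of 2 genes taken within a library does not depend on how libraries are scaled to each other. *Irgm1* over *Irgm2* was 7.96, 6.44 and 7.77 in untreated NTC and 9.87, 8.94 and 10.9 in untreated DKO libraries. With IFNγ it was 2.83, 2.97 and 2.88 in NTC and 6.12, 5.52 and 5.25 in DKO libraries. *Irgm1* over the sum of the other 6 genes was 2.15 ± 0.271 (SD, n = 3) in NTC and 4.24 ± 0.610 in DKO cells without IFNγ, and 0.805 ± 0.0268 in NTC and 1.44 ± 0.139 in DKO cells with it. In all 4 comparisons the DKO libraries lay above the NTC libraries. Each exact two-sided permutation test gave p = 0.1, the smallest that 3 against 3 libraries allow. After Benjamini-Hochberg adjustment over the 4 tests it was 0.1 too. With IFNγ, all DKO libraries were higher in *Irgm1* and lower in *Irgm2*, so the ratio of these genes had to separate. The 4 tests share the *Irgm1* values and are not separate results.

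*Tgtp1* and *Tgtp2* are near-identical copies, and reads could be split between them by the authors' counting. Of the distinct 50-base stretches of *Tgtp1* transcripts, 79.4% also occur in *Tgtp2*, and 85.8% of those of *Tgtp2* occur in *Tgtp1*. Within conditions their values moved in opposite directions, with a correlation of −0.68 of the deviations from the condition means over 12 libraries, 6 of which are at 0 for both. This was not particular to the pair. The deviations of *Tgtp1* also ran against those of *Igtp* (−0.678), *Ifi47* (−0.463), *Irgm2* (−0.315) and *Irgm1* (−0.108). Whether a split of reads took part was not tested. The ratio of *Tgtp2* to *Tgtp1* ran from 1.16 to 1.59 in NTC cells with IFNγ and from 0.890 to 2.01 in DKO cells with IFNγ. Their sum, which such a split leaves alone, was 7.61 to 8.31 TPM in the former and 5.90 to 7.97 TPM in the latter. *Igtp* shares 11.8% and *Irgm2* 6.79% of such stretches with each other, *Ifi47* shares 2.54% with *Olfr56* and 2.27% with *Gm12188*, which both overlap its exons, and *Irgm1* 0.379%.

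Of 11 other IRG genes and pseudogenes sought, 9 were listed and 1 reached the level for testing, *Irgq*, a divergent member that is not an IFNγ target, at means of 8.34 TPM in untreated NTC, 8.40 in treated NTC, 9.89 in untreated DKO and 9.80 in treated DKO cells. It passed no comparison, with an adjusted p-value of 0.942 for IFNγ in NTC cells and 0.0514 between untreated genotypes. *Gm12185*, in the *Irgm1* cluster, was at 0 in all untreated libraries and at 0.0722 to 0.132 TPM with IFNγ, and it shares 223 exonic bases with *Tgtp1*. *9930111J21Rik1* and *9930111J21Rik2*, whose values were nearly the same, were at 0 in all untreated libraries, at 0.293 to 0.555 TPM in treated NTC libraries and at 0, 0.246 and 0.388 TPM (*9930111J21Rik1*) in treated DKO libraries. With no filter on low values they passed with IFNγ in NTC cells (adjusted p = 0.0361 for *9930111J21Rik1* and 0.0364 for *9930111J21Rik2*), where *Gm12185* did not (adjusted p = 0.0917), and none of the 3 passed in DKO cells (adjusted p = 0.525, 0.529 and 0.493). Among 10 listed genes that flank the 6 chromosome 11 genes, 5 were tested and 0 passed with IFNγ in either genotype by limma, with 2 of 5 at an unadjusted p under 0.05 in each. With 12.1% and 0.78% of all tested genes passing, a count of 0 among 5 is not a result about these neighbours. Over all 11663 tested genes, 3707 in NTC and 1119 in DKO cells had an unadjusted p under 0.05 with IFNγ. Between genotypes, *Gemin5*, near *Igtp* and *Irgm2*, was higher in untreated DKO cells (0.26, adjusted p = 0.000932) and in treated DKO cells (0.45, adjusted p = 9.11e-06), and *Gm12184*, near *Irgm1*, in treated DKO cells (0.28, adjusted p = 0.0343).

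Along the path from the IFNγ receptor to the promoter, *Irf9*, a DNA-binding subunit of a complex on the ISRE, rose with IFNγ by 1.29 in NTC and 0.96 in DKO cells on the log2 scale, and *Irf1*, an early IFNγ-induced activator of ISRE genes, by 1.14 and 0.93. *Stat2* rose by 0.36 in NTC cells (adjusted p = 0.0309) and was at 0.22 in DKO cells (adjusted p = 0.473).

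Between untreated genotypes, 3 of 10 tested genes of this path were higher in DKO cells, where 17% of all tested genes were. *Ifngr2*, the signaling chain of the receptor, was at a mean of 41.8 TPM in DKO and 27.1 TPM in NTC cells (log2 difference 0.60, adjusted p = 1.88e-05). *Irf1* was at 12.4 and 8.21 TPM (0.53, adjusted p = 7.83e-05) and *Irf9* at 4.56 and 3.65 TPM (0.26, adjusted p = 0.0197). With IFNγ, *Ifngr2* (0.44) and *Irf1* (0.33) were higher in DKO cells.

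The guanylate-binding proteins, which are recruited to vacuoles alongside IRGs, had 10 listed genes, of which 6 missed the filter on low values. The 4 tested rose with IFNγ in both genotypes, where 7.31% of all tested genes rose in NTC and 0.677% in DKO cells. *Gbp6* and *Gbp7* could pass the filter only through their treated libraries, so this count supports nothing by itself. *Gbp2* rose by 2.83 in NTC and 2.55 in DKO cells, the highest log2 difference of all tested genes in each. *Gbp7* was higher in DKO cells without IFNγ (0.824 against 0.365 TPM, log2 difference 0.42, adjusted p = 0.0103) and with it (3.25 against 2.27 TPM, 0.38, adjusted p = 0.0143), and the other 3 did not differ between genotypes by the test.

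The Atg8 conjugation genes are needed in infected cells for IRGs to load onto vacuoles and not onto other membranes. Their log2 differences with IFNγ ran from −0.09 to 0.15 in NTC and from −0.12 to 0.10 in DKO cells. Of 12 tested, 1 rose in NTC cells (*Gabarap*, an Atg8 protein, by 0.15, adjusted p = 0.0160), where 7.31% of all tested genes rose. In DKO cells 0 passed by limma, against 0.78% of all tested genes. An unadjusted p under 0.05 was reached there by 0 of the 12 and by 1119 of all 11663 tested genes. These IFNγ counts are not a result about the Atg8 genes. Between genotypes, *Atg7*, the E1-like enzyme, was higher in DKO cells, with log2 differences of 0.21 in untreated cells (adjusted p = 0.0152) and 0.16 in treated cells (adjusted p = 0.0453). *Atg3*, the E2-like enzyme that attaches Atg8 to lipid, was lower, at −0.31 in untreated cells (adjusted p = 0.000511) and −0.39 in treated cells (adjusted p = 7.44e-05). *Atg10* (−0.33) and *Atg12* (−0.27) were lower as well without IFNγ, which makes 3 lower and 1 higher of 12, and with IFNγ 5 were lower and 1 higher. These counts lie near the shares of all tested genes that differed, 36.4% without IFNγ and 43.3% with it, and are not a result about the Atg8 genes. Among 3 genes of ubiquitin marking of vacuoles, 2 were lower in untreated DKO cells by limma, where 2265 of all 11663 tested genes were. These were the adaptor *Sqstm1* (p62), at a log2 difference of −0.34 (adjusted p = 1.26e-05), and the ligase *Traf6*, at −0.55 (adjusted p = 3.78e-05). With IFNγ both were lower too, at −0.19 and −0.50, where 23.9% of all tested genes were lower. The ligase *Trim21* rose with IFNγ in NTC cells by 0.45 (adjusted p = 0.0262) and was at 0.51 in DKO cells (adjusted p = 0.0644).

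Over the 12 libraries, the tested genes outside the family whose log2(TPM + 1) followed *Irgm1* most closely were *Ddx58* (Pearson r = 0.99), which encodes the RNA sensor RIG-I, *Gbp7* (r = 0.99) and *Lgals3bp* (r = 0.99). For *Irgm2* they were *Nlrc5*, the activator of MHC class I genes, *Psme2*, a proteasome activator subunit, and *Tap1*, a peptide transporter, all with r of 0.99 or more. *Psme2* was among the 3 closest genes for *Igtp*, *Ifi47*, *Tgtp1* and *Tgtp2* too, and for none of these was any of the 3 shared with *Irgm1*. These correlations describe 4 conditions of 3 libraries each, in which the step between untreated and treated cells sets most of the value. Between members, r ran from 0.90 for *Irgm1* and *Ifi47* to 0.997 for *Igtp* and *Tgtp2*.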

How the data were processed

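The authors deposited TPM, estimated with RSEM 1.2.4 calling Bowtie on an annotation that merges Ensembl release 71 with others. Unaligned reads went to TopHat against the mouse genome (mm10), per the study's methods. Libraries were poly(A)-selected, unstranded and read from both ends over 50 bp. TPM keep no depth, and a scaling between libraries is not given in the sources used here. Strand was not recorded, so antisense overlaps cannot be resolved.

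The fit took the 11663 of 23022 genes that reached 1 TPM in 3 or more libraries, as log2(TPM + 1), with limma 3.58.1 in R 4.3.3 (statmod 1.5.0), with a mean for each condition over all 12 libraries and a mean-dependent prior variance. Adjustment was by Benjamini-Hochberg over all genes tested, with a threshold of 0.05, in 5 comparisons. The fit was tested on simulated data. Alternatives were a pseudocount of 0.1 TPM, no filter, a replicate block, only the libraries of a comparison, 2 scalings, 1 prior variance, *Tgtp1* and *Tgtp2* summed, and each library left out. Ratios and exact tests used scipy 1.17.1, pandas 2.3.3 and numpy 2.4.6 in Python 3.11.15, and plots matplotlib 3.10.9. Positions came from GENCODE M21, and promoters from RefSeq. Named are all 7 members, genes of fixed lists (other IRG genes, IFNγ receptor to promoter, Atg8 conjugation, Gbp, ubiquitin and p62, *Mbnl*), the 3 genes most like each tested member by Pearson r, and the 2 nearest listed genes on each side. An item of the receptor to promoter list is not reported here. The members and lists were chosen with earlier results of these data known.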

Additional observations from a re-analysis of the deposited data

How the results depend on the processing

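Under all alternatives run, each library left out included, every tested IRG gene passed with IFNγ in both genotypes (6 genes, 7 with no filter and 5 with *Tgtp1* and *Tgtp2* summed), and 0 passed for the difference in response. Wherever the filter was used, *Irgm2*, *Igtp*, *Tgtp1* and *Tgtp2* were tested only through their treated libraries. The count passing with IFNγ therefore supports nothing by itself here either. The count of 0 for the difference in response lies near the share of all tested genes and is not a result about the family. Between untreated genotypes the count of 1 became 2, with *Irgm2*, under a pseudocount of 0.1 TPM and with 1 prior variance (adjusted p = 0.0401), and stayed at 1 over the fits without 1 library. With IFNγ the count of 2 became 3, with *Iigp1*, when no filter was used, became 1 under a pseudocount of 0.1 TPM and ranged from 1 to 2 over the fits without 1 library, with *Irgm2* lost without treated NTC replicate 3 and without treated DKO replicate 2. Scaling to the same total left *Irgm2* close to the threshold (−0.26, adjusted p = 0.0493). Signs turned only for values that did not pass. The untreated *Igtp* difference ranged from −0.066 to 0.017 over the fits without 1 library, at 0.0065 without untreated NTC replicate 2, 0.0087 without untreated DKO replicate 1 and 0.017 without untreated DKO replicate 3. The *Ifi47* response difference ranged from −0.10 to 0.16, at −0.07, −0.03, −0.02 and −0.10 without untreated NTC replicate 2, treated NTC replicate 2, untreated DKO replicate 3 and treated DKO replicate 3. Both the response and the treated difference of *Tgtp2* ranged from −0.23 to 0.11, the latter without treated DKO replicate 2. *Iigp1* has a test only with no filter, where its log2 rise was 0.69 in NTC cells (adjusted p = 0.00123) against 0.47 for DKO (adjusted p = 0.0346).

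The replicate block kept the counts at 6, 6, 0, 1 and 2 and changed no call of a member. Same-numbered libraries deviated together with r over 0.1 in 4 of 18 pairs (−0.179 to 0.182), so the numbers were not used as pairs.

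Over all genes, the count of 1411 with IFNγ in NTC cells was 897 with no filter and 737 with 1 prior variance. It was 394, 348, 335 and 319 without untreated NTC replicates 2 and 3 and treated NTC replicates 2 and 3. It was 1641 without treated NTC replicate 1, and 2020 and 1948 without treated DKO replicates 2 and 3. Over all fits without 1 library it ran from 319 to 2020. The count of 4 for the response difference was 10 with no filter, 2 with the block and 0 to 7 without 1 library. The difference in response uses all 12 libraries, so a fit on its libraries alone is the fit reported. With *Tgtp1* and *Tgtp2* summed, *Tgtp2* has no value of its own. With 3 libraries per condition and no depth, small differences in genes near or under 1 TPM are not resolved.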
